A study of Mus musculus with 10 samples.

Results

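The 33 genes described here encode chaperones, folding enzymes, degradation factors and signalling proteins of the endoplasmic reticulum (ER) and its stress response. They were taken by gene symbol from 12393 genes that the probe sets of a mouse Affymetrix expression array name singly, older symbols included (Ero1l is now Ero1a). All 33 were on the array, read by 76 probe sets, and all 33 passed the filter on low signals. A gene is represented below by its probe set of highest mean signal, and signals are on the linear scale of the scanner software.

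The ER folds secreted and membrane proteins. BiP, the product of Hspa5, binds unfolded chains with the help of J-domain partners. The lectins calnexin and calreticulin hold glycoproteins while disulfide isomerases join their cysteines, and chains that fail are drawn back to the cytosol and destroyed. When unfolded chains accumulate, the sensors IRE1 (Ern1), ATF6 and PERK (Eif2ak3) start the unfolded protein response. IRE1 splices Xbp1 mRNA, ATF6 is cut to release a transcription factor, and PERK phosphorylates eIF2 and raises ATF4. Fibroblasts, which secrete collagen, have a well-developed ER.

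The cells were mouse embryonic fibroblasts (MEFs) deleted for G9a, a histone H3 methyltransferase whose gene is Ehmt2. They were then given 1 of 4 vectors, 1 of them empty. Empty-vector cells are called delta, and WT cells received FLAG-G9a of wild-type sequence. K165A and H1093K cells received FLAG-G9a carrying the substitution so named, H1093K being the catalytic mutant. Another pair of arrays is titled only deleted, and the labels do not say what those cells carried. Each of the 5 groups had 2 arrays, the labels name no clones and do not say that the 2 came from separate cultures, so a p-value here reflects array-to-array spread that could be technical.

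An Ehmt2 probe set gave 473 and 415 on the delta arrays, 676 and 620 on WT, 704 and 725 on K165A, 461 and 494 on H1093K, and 1678 and 1749.7 on the arrays labelled deleted. The last pair was thus the highest, against its label (log2 difference 1.91 from delta, limma adjusted p = 2.72e-07), and this goes for every direction drawn from those arrays below. Which part of Ehmt2 is missing in these cells was not analysed here. Of 15 fibroblast markers on the array, 14 passed the filter, Dcn and Pdgfra only through the arrays labelled deleted. Their summed signal was 58286 to 81026 in the 4 vector groups, delta included, and 66392 to 72870 on the arrays labelled deleted, so the groups overlapped. Single markers went both ways. Dcn and Pdgfra read at most 54.0 and 81.7 in the vector groups and at least 1357 and 1628 on the arrays labelled deleted. Vim, by contrast, read at least 9945 in the vector groups and at most 8871 on the arrays labelled deleted. These 3 were picked after their values were seen. The summed signal of 6 epithelial markers was 631 to 1421 in the vector groups and 4128 to 4203 on the arrays labelled deleted. Of these markers Krt8 and Krt18 were highest there, while Cdh1 read 31.9 and 16.1 there and at least 77.4 on the other arrays. Krt19 read 391 and 385 there, below the 446 and 426 of delta, and Epcam, which defines epithelium, read at most 35.9 on any array. Macrophage markers (3 of 8 above the filter) and endothelial markers (1 of 6) were near background, and of the plasma cell and B lineage list 1 of 5, Sdc1, passed. No marker was listed at 0, and the part of these differences in the results below was not tested.

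Many stress-response promoters carry the ER stress response element (ERSE), at which ATF6 acts with the factor NF-Y. Its letters are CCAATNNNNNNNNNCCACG. The related ERSE-II reads ATTGG, then any base, then CCACG. RefSeq promoters of GRCm38.p6 were searched on both strands over the 250 bases before each start, and 27 of the 33 genes had an entry (none was held for Atf6, Derl1, Hyou1, Manf, Sec61a1 and Sil1). ERSE stood in 8 of those 27 genes, namely Calr, Canx, Creld2, Dnajc3, Hsp90b1, Hspa5, Pdia6 and Syvn1. Of all 32851 promoters, 37 (0.113%) held it. ERSE-II stood in Herpud1 and in 10 promoters in all (0.0304%). Hspa5 also held TGACGTG, the core of the unfolded protein response element (1.65% of all promoters). Herpud1 also held TGATGCAA, the core of the amino acid response element to which ATF4 binds (0.791%). No matches in these genes overlapped. These 4 stretches show the elements in the chaperone and degradation genes that the later comparisons are read against. Capitals mark the fixed letters of each match, on the gene's own strand, 5′ to 3′, in GRCm38.p6.
Hspa5, chr2:34771923-34772053, plus strand: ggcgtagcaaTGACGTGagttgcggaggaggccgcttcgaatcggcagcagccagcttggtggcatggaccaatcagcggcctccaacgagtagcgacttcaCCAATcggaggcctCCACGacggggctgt
Hsp90b1, chr10:86705523-86705666, minus strand: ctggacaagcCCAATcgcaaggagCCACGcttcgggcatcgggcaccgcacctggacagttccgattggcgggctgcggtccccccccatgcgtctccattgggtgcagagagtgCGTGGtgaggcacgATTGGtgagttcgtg
Calr, chr8:84847065-84847103, minus strand: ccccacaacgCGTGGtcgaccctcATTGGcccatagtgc
Herpud1, chr8:94386307-94386397, plus strand: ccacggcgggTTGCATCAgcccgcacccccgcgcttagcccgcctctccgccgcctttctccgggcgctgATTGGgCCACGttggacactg

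The next 3 stretches are the last 120 bases before the start of the members whose mRNA was lower in the WT cells (below). Neither element nor either core was found in the 250 bases upstream of these genes. Capitals mark single CCAAT boxes (CCAAT or, on the other strand, ATTGG). Dnajb11 held 3 of them, Eif2ak3 held 2 and Xbp1 held 0, and none of the 3 stretches held CCACG or CGTGG.
Dnajb11, chr16:22857725-22857844, plus strand: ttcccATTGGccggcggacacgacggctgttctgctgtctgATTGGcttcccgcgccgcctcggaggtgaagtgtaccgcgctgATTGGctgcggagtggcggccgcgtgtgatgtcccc
Xbp1, chr11:5520521-5520640, plus strand: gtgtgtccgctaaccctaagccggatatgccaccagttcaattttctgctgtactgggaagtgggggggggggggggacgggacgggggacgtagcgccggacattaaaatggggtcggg
Eif2ak3, chr6:70844395-70844514, plus strand: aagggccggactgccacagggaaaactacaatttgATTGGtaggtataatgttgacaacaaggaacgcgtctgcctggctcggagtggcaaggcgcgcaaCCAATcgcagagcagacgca

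Restoring wild-type G9a was compared with the empty vector first, which asks what the protein itself changes. Of the 33 genes, 3 were lower and 2 higher in WT than in delta after limma with Benjamini-Hochberg adjustment over 13576 probe sets, at an adjusted p under 0.05. Over all 7761 genes tested, 13.5% passed in either direction, 7.69% lower and 5.85% higher, so the members' share, 15.2%, lay near this background. The median log2 difference of the members was -0.11, against -0.02 over all genes, and 25 of the 33 differences were negative. K165A cells gave 3 lower and 1 higher of the 33 against the same delta arrays, where 13.1% of all genes passed (7.74% lower, 5.32% higher) and the members' median was -0.13. The comparisons share the delta arrays, so they are set side by side and not counted as independent.

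Dnajb11 encodes ERdj3, a soluble J-domain partner that hands unfolded chains to BiP. Its signals were 1099 and 1153 on the delta arrays, 635 and 701 on WT, 691 and 716 on K165A, 995 and 932 on H1093K, and 654 and 678 on the arrays labelled deleted. The WT, K165A and deleted arrays all lay below both H1093K arrays, which lay below both delta arrays. On the log2(signal + 16) scale used for every difference here, WT was lower than delta by 0.74 (a difference of -0.74, SE 0.08, limma adjusted p = 3.11e-04), a 1.67-fold lower level. K165A differed from delta by -0.67 (SE 0.08, limma adjusted p = 6.26e-04). Both calls held whichever array was left out. In such bulk samples fewer cells of a type and less RNA per cell cannot be told apart.

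By its probe set of highest mean, BiP itself did not pass in any comparison. Hspa5 read 5779 and 6949.8 on the delta arrays, 6474 and 5448 on WT, 5747 and 5681 on K165A, 5614 and 6463 on H1093K, and 6676 and 7186 on the arrays labelled deleted. Delta and WT arrays overlapped, and the difference of WT from delta was -0.09 (95% interval -0.37 to 0.18). Among the 8 genes of BiP and its partners, Dnajb11 alone passed in WT or K165A against delta. The others were the J-domain genes Dnajb9 and Dnajc3, the nucleotide exchange factors Hyou1 and Sil1, the ER HSP90 gene Hsp90b1 and Sdf2l1, a J-protein cofactor. Their differences from delta reached at most 0.18 in size in WT and 0.24 in K165A.

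By the probe set of highest mean, none of the 9 lectin chaperone and disulfide genes passed in WT or K165A against delta by limma. In each comparison 3 had an unadjusted p under 0.05. All 9 differences were negative in both comparisons, with medians of -0.15. They comprise Calr and Canx, the isomerases Pdia3, Pdia4, Pdia6 and P4hb, the isomerase oxidase Ero1a, and Creld2 and Manf, secreted ER stress proteins. Creld2, which carries the ERSE, read 860.4 and 889.6 on delta and 725 and 744 on WT without overlap, a difference of -0.25 (limma adjusted p = 0.0715). With the replicate number as a block its adjusted p was 0.0226 in WT and 0.0384 in K165A. Ero1a, which passes electrons from the isomerases to oxygen, read 499.6 and 599.6 on delta and 430.5 and 441 on WT. Its difference of -0.32 did not pass (limma adjusted p = 0.0731, or 0.0357 with the block). A lesser Ero1a probe set did pass in WT against delta (-0.39, limma adjusted p = 0.0289). That call was lost in a fit of the delta and WT arrays alone (0.114), without the deleted arrays (0.0649) and without any 1 of 6 arrays.

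The 6 members of ER-associated degradation gave 0 calls in WT or K165A against delta by limma, with 0 and 1 at an unadjusted p under 0.05. They are Sel1l and Syvn1 of the ubiquitin ligase, the mannosidase-like Edem1, the membrane proteins Derl1 and Derl2, and Herpud1, which recruits the ligase. Lesser probe sets did pass. One of Sel1l was higher in K165A than in delta (0.39, limma adjusted p = 0.0489), a call lost under several settings, and without any 1 of 9 arrays (0.0682 to 0.256). One of Edem1 passed with the replicate block and not without it, at -0.36 in WT (adjusted p = 0.0363) and -0.35 in K165A (0.0458). A lesser probe set of Herpud1 also passed in K165A. It read 471 and 458 on delta, 460.0 and 461 on WT, 296 and 328 on K165A, 544 and 544 on H1093K, and 945 and 996 on the arrays labelled deleted. K165A was lowest and differed from delta by -0.55 (limma adjusted p = 0.00305), and this call was lost (0.0521) when only the delta and K165A arrays entered the fit. The probe set of highest mean read 605 and 579 on delta, 658 and 464 on WT, 739 and 423 on K165A, 763 and 545 on H1093K, and 953 and 763 on the arrays labelled deleted. There the replicates lay far apart and the K165A arrays enclosed both delta arrays, so the 2 probe sets disagree and Herpud1 in K165A is uncertain.

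Of the 5 sensor and signalling genes, Xbp1 and Eif2ak3 were lower in both WT and K165A, and Ppp1r15a was higher in WT. Xbp1, the transcription factor made from IRE1-spliced mRNA, read 2194 and 2268 on delta, 1466 and 1602 on WT, 1472 and 1664 on K165A, 1885 and 1954 on H1093K, and 2272 and 2444 on the arrays labelled deleted. WT and K165A lay below every other group without overlap. The differences from delta were -0.54 in WT (SE 0.08, limma adjusted p = 0.00278, 1.45-fold lower) and -0.51 in K165A (limma adjusted p = 0.00394). Both held whichever array was left out, and the second-highest Xbp1 probe set gave -0.39 and -0.42 and also passed. The array reads total Xbp1 mRNA, and splicing was not measured.

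Eif2ak3, the PERK kinase, read 751 and 803 on delta, 541 and 588 on WT, 589.1 and 592 on K165A, 715 and 774 on H1093K, and 539 and 522 on the arrays labelled deleted. The delta and H1093K arrays overlapped and lay above the other 3 groups. WT differed from delta by -0.45 (SE 0.09, limma adjusted p = 0.00814), which was lost without WT replicate 1 (0.0696) or delta replicate 2 (0.0622). K165A differed by -0.39 (limma adjusted p = 0.0180), which was lost without delta replicate 2 (0.113), K165A replicate 1 (0.0770) or K165A replicate 2 (0.0730), and when only the delta and K165A arrays entered the fit (0.0767).

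Ppp1r15a encodes GADD34, the stress-induced subunit that leads a phosphatase to eIF2 and reverses the PERK signal. Its arrays gave 998 and 1101 in delta, 1344 and 1324 in WT, 1154 and 1119 in K165A, 889 and 975 in H1093K, and 1919.6 and 1843 on those labelled deleted. WT was 1.27-fold higher than delta (log2 difference 0.34, SE 0.08, limma adjusted p = 0.0198). This call was lost without WT replicate 1 (0.103), WT replicate 2 (0.0818) or delta replicate 1 (0.119), and in a fit of the delta and WT arrays alone (0.0598). K165A lay above delta without overlap, but its difference of 0.12 did not pass (limma adjusted p = 0.408).

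The remaining sensors gave no call against delta in the reconstituted groups. Atf6 read 425 and 390.1 on delta, 405 and 469 on WT, 374 and 432 on K165A, 488 and 570.3 on H1093K, and 591 and 649.9 on the arrays labelled deleted. Ern1 was dim, at 126 and 134 on delta, 135 and 132 on WT, 151 and 151 on K165A, 136 and 123 on H1093K, and 90.7 and 109 on the arrays labelled deleted. The filter lay at a mean signal of 103.5, so the IRE1 gene was measured with little room above background.

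Among the 5 translocation and other genes (Sec61a1 and Sec61b of the channel, Ssr1, Serp1 and the ubiquitin-like modifier gene Ufm1), Ssr1 was higher in both WT and K165A. Ssr1, a subunit of the translocon-associated TRAP complex, read 2334 and 2375 on delta, 2809 and 2901 on WT, 2916 and 2807 on K165A, 2593 and 2601 on H1093K, and 3113 and 3171 on the arrays labelled deleted. Every other group lay above delta. The differences were 0.28 in WT (SE 0.07, limma adjusted p = 0.0254) and 0.28 in K165A (limma adjusted p = 0.0248). Both calls were lost without either array of either group compared (0.0696 to 0.117 in WT, 0.0645 to 0.118 in K165A), with median centring (0.0553 and 0.0609) and in fits of those arrays alone (0.112 and 0.119). Its other probe sets did not pass, and the mean over its probe sets did not either (adjusted p = 0.468 and 0.713), so the Ssr1 change rests on 1 probe set.

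Serp1, which protects membrane proteins during stress, differed between its probe sets. Its probe set of highest mean read 1877 and 1909 on delta, 1802 and 1692 on WT, 1683 and 1626 on K165A, 1927 and 1943 on H1093K, and 2091 and 2148 on the arrays labelled deleted. It did not pass in WT against delta (-0.12, limma adjusted p = 0.320). The second probe set read 1433 and 1483 on delta, 1053 and 1059.5 on WT, 1117 and 1187 on K165A, 1329 and 1269.6 on H1093K, and 1500.3 and 1533 on the arrays labelled deleted. Here WT was lower than delta (-0.46, limma adjusted p = 0.00210, held whichever array was left out). K165A was also lower (-0.34, limma adjusted p = 0.0120, lost without delta replicate 2 at 0.0775 or K165A replicate 1 at 0.0776, and in a fit of those arrays alone at 0.0797).

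**Figure D1:**
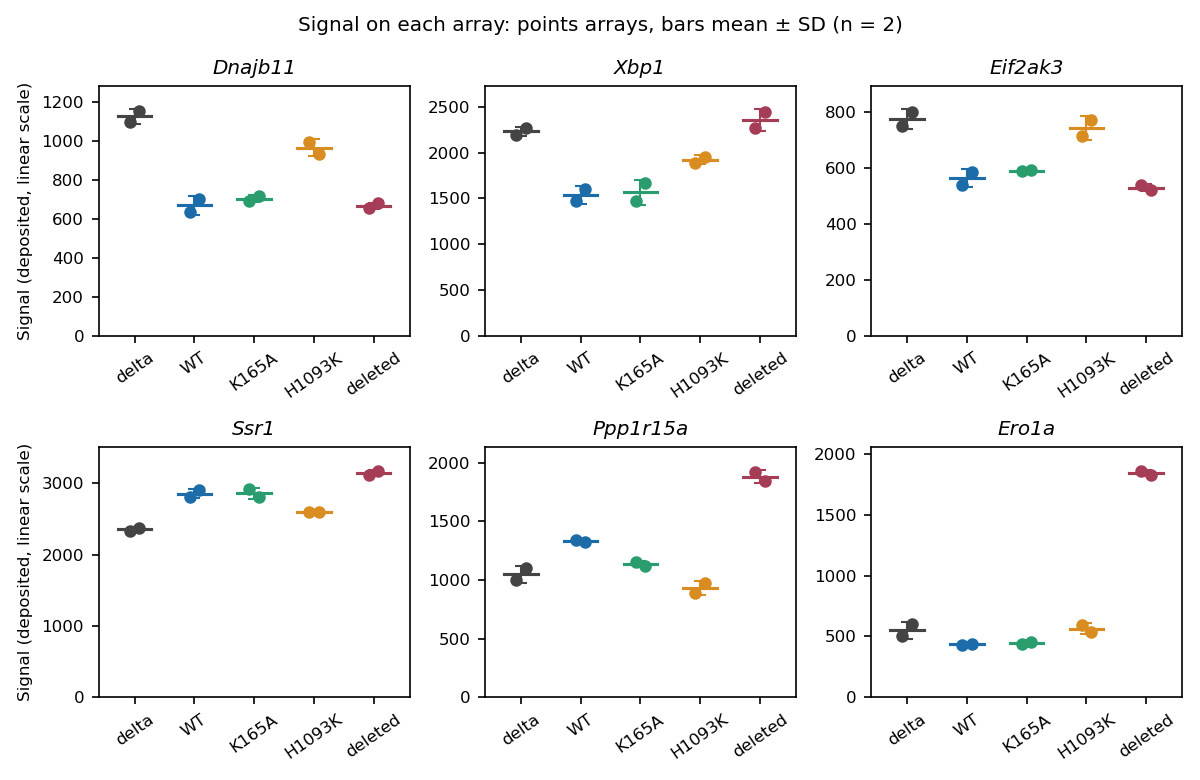
Linear signals of 6 members on each of the 10 arrays, by group, with points for arrays and bars for the mean and SD of 2 arrays. Dnajb11, Xbp1 and Eif2ak3 are lower on the WT and K165A arrays than on the delta and H1093K arrays, and Ero1a and Ppp1r15a are highest on the arrays labelled deleted.

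The 9 members with an ERSE or ERSE-II match gave 0 calls in WT or K165A against delta in the fit without the block and by the probe set of highest mean. With the block Creld2 passed in both (adjusted p = 0.0226 and 0.0384), and the lesser probe set of Herpud1 passed in K165A without it (0.00305). Their log2 differences ran from -0.25 to 0.05 in WT. The 18 with a promoter entry and neither element gave 3 lower and 2 higher in WT, from -0.74 to 0.34. Over all genes 13.5% passed in WT against delta and 13.1% in K165A against delta. At such shares 9 genes are too few to read 0 calls as a difference. No test was made between these sets of genes.

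The catalytic mutant was then compared with the empty vector and with the other constructs. The Ehmt2 probe set given above differed little between H1093K and delta (0.10, limma adjusted p = 0.735). H1093K was lower than WT in it (-0.43, limma adjusted p = 0.0180), and K165A higher than H1093K (0.57, 0.00393). A dimmer Ehmt2 probe set did not pass in H1093K against delta (1.48, limma adjusted p = 0.272). Nor did it pass in H1093K against WT (0.23, 0.862) or K165A against H1093K (0.56, 0.612). By the probe set given above, Ehmt2 mRNA thus differed between these groups along with the construct. The part of each was not tested, and enzyme activity was not measured here. H1093K against delta gave 0 of 33 members by limma, with 3 at an unadjusted p under 0.05 and 0 with the replicate block, where 1.01% of all genes passed. Dnajb11 differed from delta by -0.22 (95% interval -0.40 to -0.04, limma adjusted p = 0.308) and Xbp1 by -0.22 (-0.40 to -0.03, adjusted p = 0.342). Eif2ak3 differed by -0.06 (-0.25 to 0.13, adjusted p = 0.857). Atf6, the other member with an unadjusted p under 0.05, was higher than delta by 0.36 (limma adjusted p = 0.271). Unchanged levels are not shown by these values, and the intervals of Dnajb11 and Xbp1 lie below 0.

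Set directly against WT, H1093K passed in 5 of the 33 members, 4 higher and 1 lower, where 9.26% of all genes passed (4.81% higher, 4.46% lower). Dnajb11 was higher in H1093K by 0.52 (SE 0.08, limma adjusted p = 0.00317) and Ppp1r15a lower (-0.51, limma adjusted p = 0.00269), and both held whichever array was left out. Eif2ak3 was higher by 0.39 (limma adjusted p = 0.0209), a call lost without WT replicate 1 (0.153), WT replicate 2 (0.0502), H1093K replicate 1 (0.0571) or H1093K replicate 2 (0.137), and in a fit of those arrays alone (0.0515). Xbp1 was higher by 0.32 (limma adjusted p = 0.0451), lost without any 1 of 8 arrays (0.0621 to 0.261), the K165A arrays being the exceptions. With the replicate block 8 members passed, Creld2 (0.23, adjusted p = 0.0412), Edem1 (0.46, 0.0130) and Ero1a (0.36, 0.0288) being added. Without the block, lesser probe sets of Ero1a (0.50, limma adjusted p = 0.0115), Serp1 (0.29, 0.0276) and Edem1 (0.51, 0.0484) were higher in H1093K. In a fit of those arrays alone the Ero1a (0.0563) and Serp1 (0.0746) calls were lost. With median centring that of Edem1 was lost (0.0503).

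Manf, a secreted protein that binds BiP, read 1953 and 1969.5 on delta, 1805 and 1703 on WT, 1704 and 1751 on K165A, 2093 and 2129 on H1093K, and 1518 and 1598 on the arrays labelled deleted. H1093K lay above every other group. It was higher than WT by 0.27 (limma adjusted p = 0.0408, lost without any 1 of the 10 arrays, 0.0544 to 0.175).

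K165A against H1093K gave 3 members, all lower in K165A, where 8.30% of all genes passed (3.74% higher, 4.56% lower). Dnajb11 differed by -0.44 (SE 0.08, limma adjusted p = 0.00822, lost without H1093K replicate 1 at 0.0751 or K165A replicate 1 at 0.0602). Manf differed by -0.29 (limma adjusted p = 0.0301), lost without either H1093K array, either K165A array or deleted replicate 1 (0.0501 to 0.151). Eif2ak3 differed by -0.32 (limma adjusted p = 0.0493), lost without any 1 of the 10 arrays (0.0623 to 0.260). With the replicate block 9 members passed. The 6 added were Atf6 (-0.38, adjusted p = 0.0306), Edem1 (-0.48, 0.0109), Ero1a (-0.33, 0.0432), Serp1 (-0.22, 0.0363) and Xbp1 (-0.29, 0.0102), lower in K165A, and Ppp1r15a (0.28, 0.0237), higher. The lesser Herpud1 probe set was lower by 0.77 in K165A (a difference of -0.77, limma adjusted p = 4.37e-04, held whichever array was left out).

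Against WT, K165A gave 0 of 33 members by limma, 0 with the replicate block and 1 at an unadjusted p under 0.05. Over all genes the share was 0%. The single nominal difference was Ppp1r15a, at -0.23 (95% interval -0.40 to -0.05), which did not pass limma's adjustment. Dnajb11 differed by 0.07 (-0.11 to 0.26), Xbp1 by 0.03 (-0.16 to 0.22) and Eif2ak3 by 0.07 (-0.13 to 0.26).

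**Figure D2:**
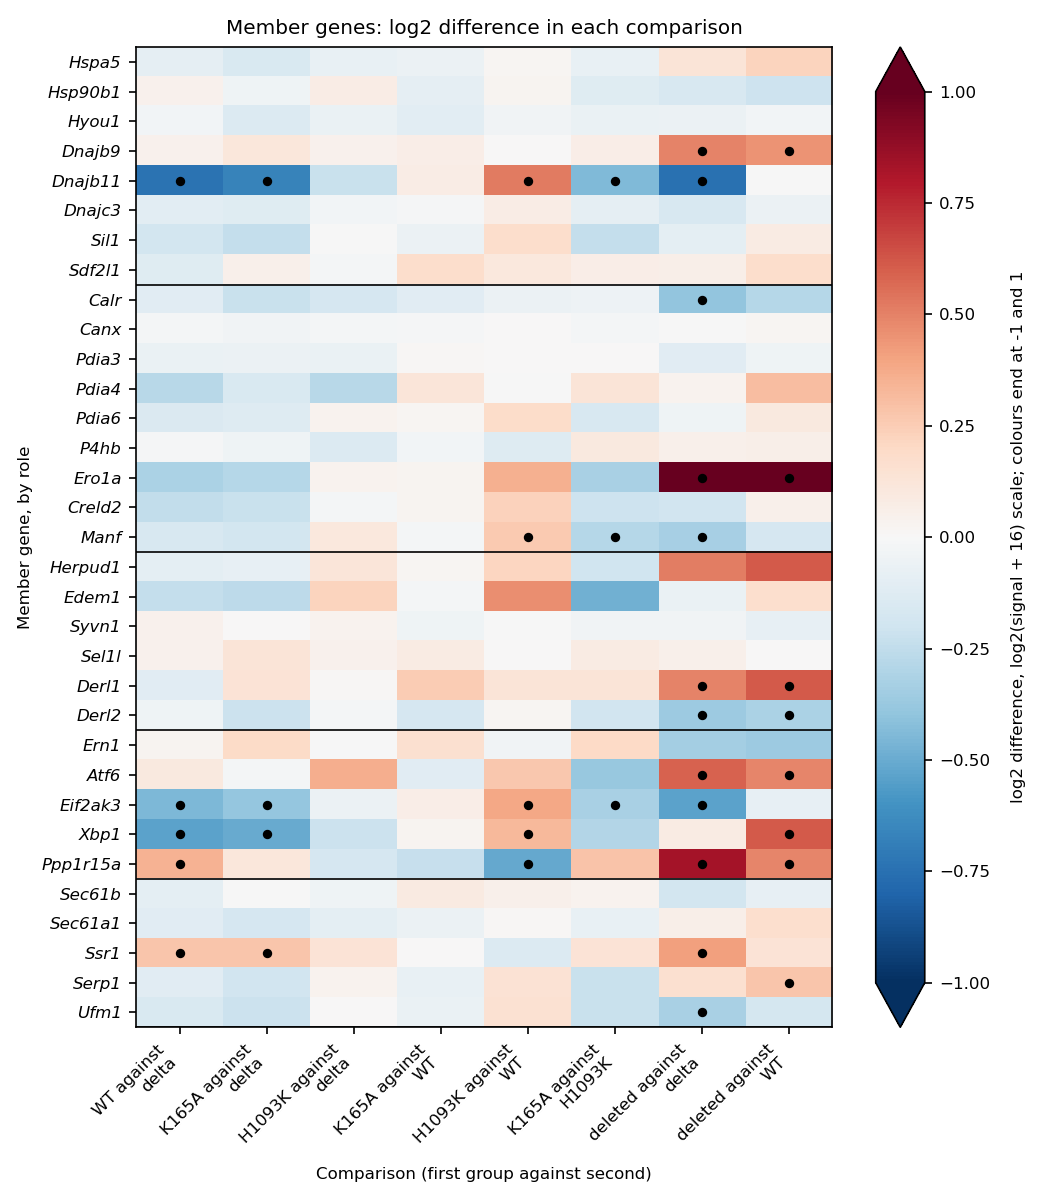
Log2 differences of the 33 members (rows, ordered by role) in the 8 comparisons (columns), coloured from -1 to 1 on the log2(signal + 16) scale, with a black dot at each limma adjusted p under 0.05. Dnajb11, Xbp1 and Eif2ak3 are marked lower in WT and K165A against delta, no member is marked in H1093K against delta or K165A against WT, and most marks lie in the columns of the arrays labelled deleted.

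The arrays labelled deleted were compared with delta and with WT because the series titles them as a group of their own. Against delta, 12 of 33 members passed, 6 higher and 6 lower. Over all genes 36.5% passed, 17.4% higher and 19.1% lower, so the members' share of 36.4% lay at the background. Against WT, 8 members passed, 7 higher and 1 lower, where 35.8% of all genes passed (18.0% higher, 17.7% lower).

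Ero1a was the member that changed most. It read 435 and 456 on K165A, 594 and 532 on H1093K, and 1861 and 1826 on the arrays labelled deleted, against the delta and WT values given above. The last pair lay above all 8 other arrays, 3.30-fold above delta (log2 difference 1.72, SE 0.10, limma adjusted p = 1.19e-06) and 4.11-fold above WT (2.04, limma adjusted p = 4.72e-07). The other 2 Ero1a probe sets were also higher than delta (limma adjusted p = 2.01e-05 and 2.40e-06). All these calls held whichever array was left out.

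The arrays labelled deleted were also highest for Ppp1r15a, by 0.83 against delta (SE 0.08, limma adjusted p = 2.90e-05, 1.78-fold) and 0.49 against WT (limma adjusted p = 0.00106). Atf6 was higher by 0.59 against delta (SE 0.12, limma adjusted p = 0.00490). Dnajb9, the J-domain protein ERdj4 that represses IRE1, read 1082 and 947 on delta, 972 and 1121 on WT, 1036 and 1155 on K165A, 1082 and 1010.1 on H1093K, and 1443 and 1424 on the arrays labelled deleted. Those 2 lay above the other 8, which overlapped, and the difference from delta was 0.50 (SE 0.10, limma adjusted p = 0.00367). Ssr1 was higher than delta by 0.41 (limma adjusted p = 0.00104, but 0.155 as the mean of its probe sets).

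Derl1 and Derl2, paralogous membrane proteins of the retrotranslocation machinery, moved in opposite directions. Derl1 read 2205 and 1809 on delta, 1582 and 2148 on WT, 2289.8 and 2119.8 on K165A, 2197 and 1849 on H1093K, and 3115 and 2561 on the arrays labelled deleted. It was higher there than in delta (0.50, SE 0.16, limma adjusted p = 0.0377), a call lost without delta replicate 2 (0.206) or deleted replicate 1 (0.215), with no filter on dim probe sets (0.0613) and with median centring (0.0512). Derl2 read 776 and 807 on delta, 762 and 774 on WT, 661 and 700.3 on K165A, 759 and 803 on H1093K, and 581 and 645 on the arrays labelled deleted, the lowest pair. It was lower than in delta (-0.36, SE 0.08, limma adjusted p = 0.00801, lost without deleted replicate 1 at 0.0698, and at 0.0781 as the mean of its probe sets).

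Among the lower members, Dnajb11 differed from delta by -0.74 (SE 0.08, limma adjusted p = 8.39e-05) and Eif2ak3 by -0.54 (SE 0.09, limma adjusted p = 0.00100). From WT these differed little, Dnajb11 with a 95% interval of -0.19 to 0.18 and Eif2ak3 of -0.28 to 0.11. Manf was lower than delta by 0.33 (a difference of -0.33, limma adjusted p = 0.00434). Calr, the lectin chaperone calreticulin, read 5726 and 6733 on delta, 6032 and 5470.4 on WT, 5263 and 5360.0 on K165A, 5145 and 5916 on H1093K, and 4341 and 5129.9 on the arrays labelled deleted. Its difference of -0.39 from delta (SE 0.12, limma adjusted p = 0.0293) was lost without delta replicate 2 (0.192) or deleted replicate 1 (0.208). Calr was the only one of the 9 members with an ERSE or ERSE-II match to pass in any of the 8 comparisons, read by the probe set of highest mean and without the replicate block. The share of all genes passing in any of them was not computed, and 36.5% passed in deleted against delta alone.

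Ufm1 encodes a ubiquitin-like modifier attached to ribosomes at the ER. Its arrays gave 624 and 564 in delta, 529.8 and 535 in WT, 514 and 503 in K165A, 583 and 606 in H1093K, and 439 and 502 on those labelled deleted. The difference of -0.33 from delta (limma adjusted p = 0.0250) was lost without delta replicate 1 (0.145) or deleted replicate 1 (0.172), and in a fit of those arrays alone (0.0791).

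Xbp1 did not pass between the arrays labelled deleted and delta (0.08, limma adjusted p = 0.517) and was higher than WT by 0.62 (SE 0.08, limma adjusted p = 3.97e-04, held whichever array was left out). Against WT, by the probe set of highest mean, Ero1a, Ppp1r15a and Xbp1 held in this way. The other 5 calls against WT did not: Atf6 was lost without WT replicate 1 (0.0971) or deleted replicate 2 (0.0864), and Dnajb9 without WT replicate 1 (0.0591). Derl1 was lost without WT replicate 1 (0.126) or deleted replicate 1 (0.112), and Serp1 without WT replicate 2 (0.0679) or deleted replicate 2 (0.0703) and with median centring (0.0692). Derl2 was lost without WT replicate 1, WT replicate 2 or deleted replicate 1, and as the mean of its probe sets (0.140). Lesser probe sets of Derl1 were also higher than WT (0.42, 0.42 and 0.80, limma adjusted p = 0.00465, 0.00317 and 0.00336). So was the lesser one of Serp1 (0.52, limma adjusted p = 3.42e-04). These calls of lesser Derl1 and Serp1 probe sets held whichever array was left out.

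Herpud1 differed between its probe sets here too. The lesser one was higher on the arrays labelled deleted by 1.04 against delta (limma adjusted p = 1.41e-05), whereas the one of highest mean, at 0.52, did not pass (0.155, or 0.00978 with the replicate block). Both lay above delta without overlap. A second Hspa5 probe set read 3507 and 3591 on the arrays labelled deleted, above the 3016 and 2992 of delta (0.24, limma adjusted p = 0.0309). That call was lost without either array of either group (0.0964 to 0.143) and with median centring (0.181). Against WT the same Hspa5 probe set was higher by 0.23 (limma adjusted p = 0.0361). This was lost with median centring (0.191), with no filter on dim probe sets (0.0527) and in a fit of those arrays alone (0.0875). The replicate block added Creld2 (-0.19, adjusted p = 0.0341) and Sec61b (-0.18, 0.0420), both lower than in delta. Against WT it added Herpud1 (0.61, adjusted p = 0.00394), higher, and Manf (-0.17, 0.0489), lower.

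**Figure D3:**
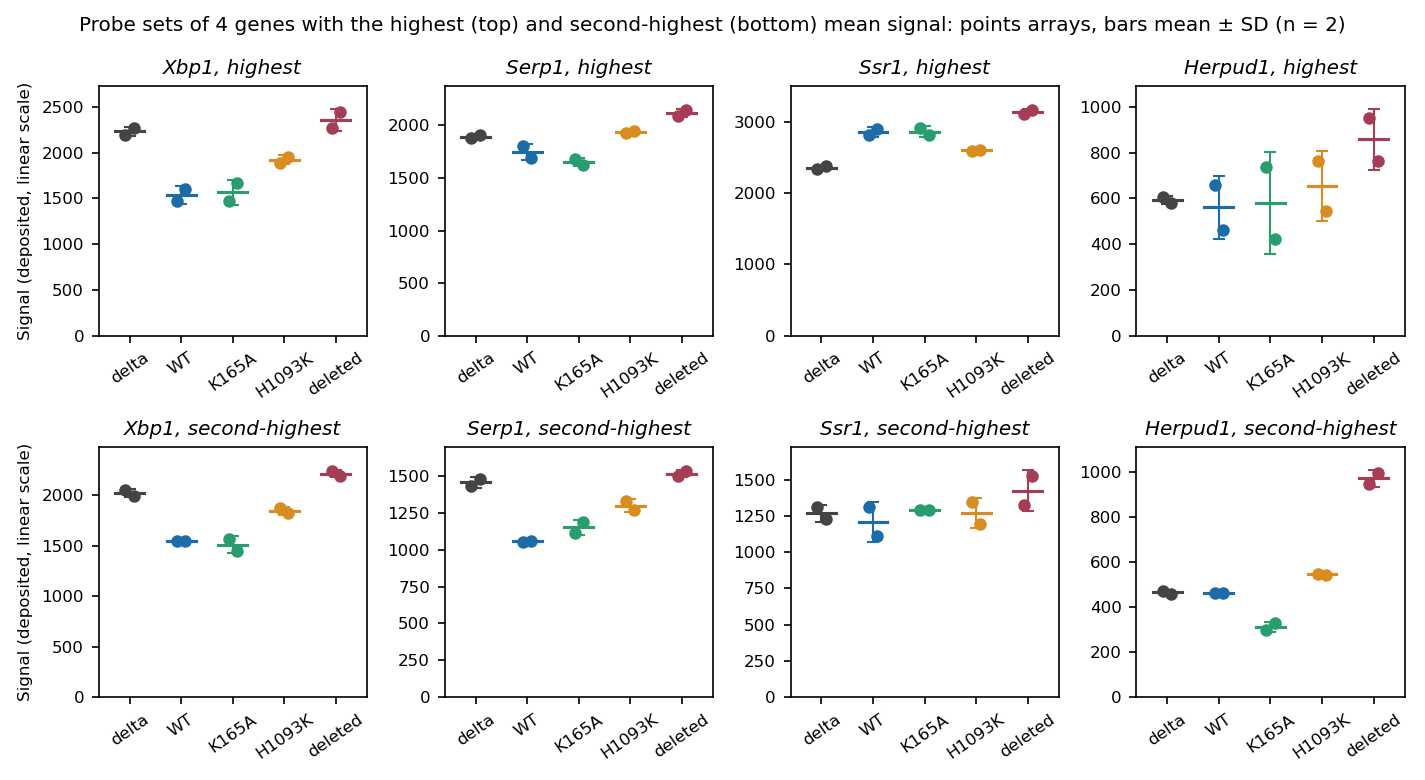
Linear signals on the 10 arrays for 4 members with more than 1 probe set, the highest by mean signal in the upper row and the second-highest in the lower, with points for arrays and bars for mean and SD of 2. For Herpud1, Serp1 and Ssr1 the probe sets differ in which groups separate, while for Xbp1 both are lower in WT and K165A than in delta.

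Of the 33 members, 14 passed in at least 1 of the 8 comparisons and 19 in none, by the probe set of highest mean and without the replicate block. The share of all genes passing in at least 1 was not computed, and 36.5% passed in deleted against delta alone. With the block Creld2, Edem1, Herpud1 and Sec61b, 4 of the 19, passed in at least 1. Without the block, lesser probe sets of Hspa5, Herpud1, Sel1l, Edem1 and Sec61a1 passed. That of Sec61a1 was higher in deleted than in WT (0.37, limma adjusted p = 0.0255). That of Sel1l was higher in deleted than in delta (0.36, limma adjusted p = 0.0302). Both were lost with median centring (0.0750 and 0.0831). The 19 include BiP (Hspa5), the ER HSP90 (Hsp90b1), calnexin (Canx), the isomerases Pdia3, Pdia4, Pdia6 and P4hb, the ligase genes Sel1l and Syvn1, and the IRE1 gene Ern1. By the probe set of highest mean, the widest differences of the 19 from delta were -0.28 (Pdia4) in WT and -0.26 (Edem1) in K165A. Neither of these passed. Lesser probe sets of Herpud1 (-0.55) and Sel1l (0.39) differed more in K165A and passed, as given above.

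The wider pathway was read from 8 lists of 128 further genes, 116 on the array and 111 above the filter. WT against delta gave 5 higher and 9 lower (12.6% called, against 13.5% of all genes), K165A against delta 2 higher and 11 lower (11.7%, against 13.1%), and H1093K against delta 0 (12 at an unadjusted p under 0.05 by limma). The lists' median differences were -0.09 in WT and -0.07 in K165A, against -0.02 and -0.01 over all genes. The arrays labelled deleted gave 30 higher and 17 lower against delta (42.3%, against 36.5% of all genes). The WT and K165A shares lay near those of all genes. On the arrays labelled deleted, 17.4% of all genes were higher and 19.1% lower. The lists' share was thus above that of all genes among higher calls and below it among lower calls, which was not tested.

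The PERK-ATF4 list held 20 genes, 18 of them above the filter: Atf4 itself, targets of this arm, eIF2 kinases and related factors. WT against delta gave 1 higher and 2 lower, and K165A 4 lower. Over all genes 5.85% were higher and 7.69% lower in WT, and 5.32% and 7.74% in K165A. Asns, the asparagine synthetase gene and an ATF4 target, read 1085 and 1182 on delta, 517 and 539.9 on WT, 429 and 465 on K165A, 997 and 1033 on H1093K, and 3889 and 3623 on the arrays labelled deleted. It was lower than delta in WT (-1.08, SE 0.08, limma adjusted p = 2.45e-05) and in K165A (-1.31, limma adjusted p = 6.36e-06), and these calls held whichever array was left out.

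Atf4 itself and Ddit3, which encodes the factor CHOP, did not pass in WT against delta, at 0.08 and -0.02. Atf4 read 1913 and 2121 on delta and 2115 and 2143 on WT. H1093K exceeded WT in Asns by 0.92 (limma adjusted p = 8.31e-05). In K165A it was lower than in H1093K (-1.16, limma adjusted p = 2.40e-05).

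On the arrays labelled deleted the PERK-ATF4 list gave 13 higher and 1 lower of 18 against delta, with a median difference of 0.86 against -0.01 over all genes, of which 36.5% were called. Without Trib3 and Vldlr, whose mean over the other 8 arrays was under the filter, it gave 11 higher and 1 lower of 16 with a median of 0.54. Atf4 read 4105 and 4679 and Ddit3 834 and 826 there, each higher than delta by 1.12 (limma adjusted p = 7.75e-06 and 2.76e-05). Atf5, a stress-induced transcription factor gene, was higher by 2.32 (limma adjusted p = 2.65e-07) and Asns by 1.71 (2.52e-07). Trib3, which encodes a pseudokinase induced by CHOP, read 1365 and 1429 there and at most 131 on the other arrays. The 1 lower gene was Nupr1 (-1.39, limma adjusted p = 8.66e-07), named after its value was seen.

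**Figure D4:**
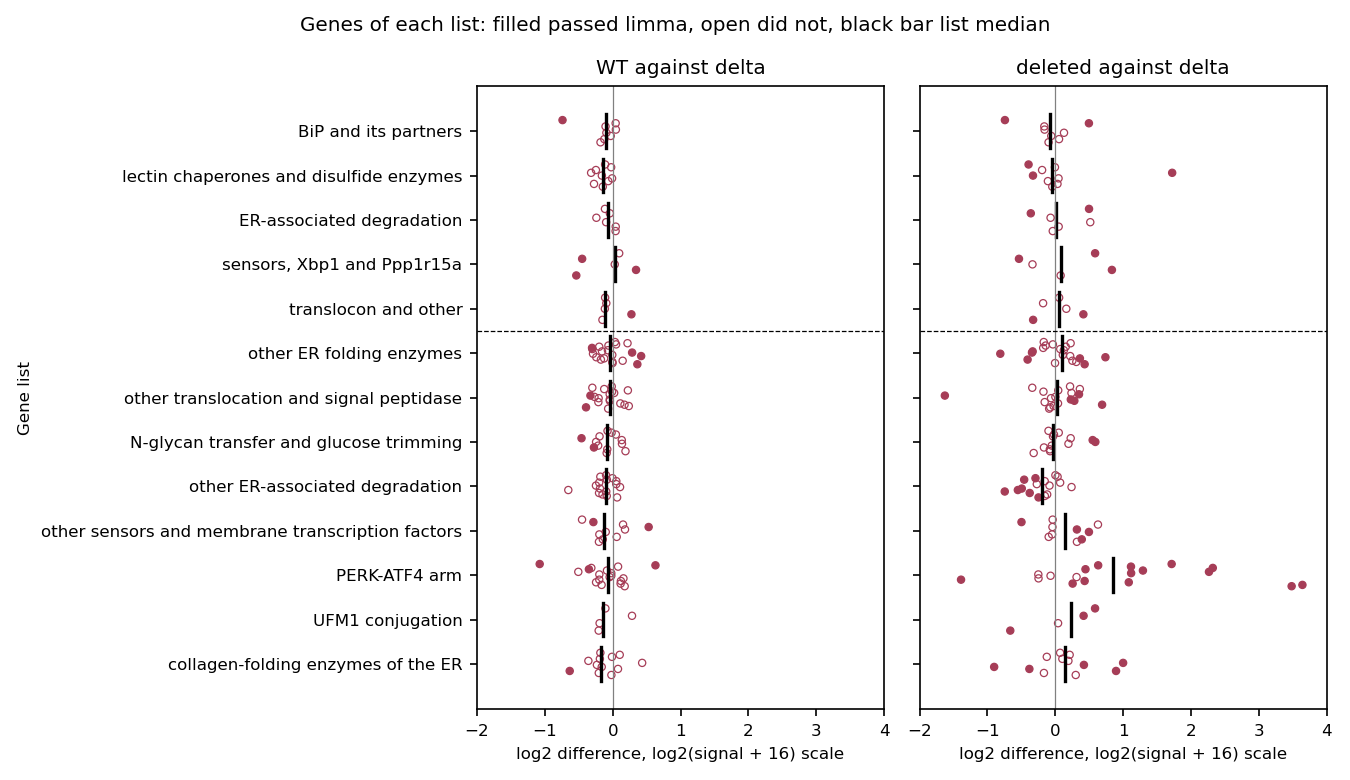
Log2 differences, on the log2(signal + 16) scale, of each gene (points; filled where it passed limma at an adjusted p under 0.05) in the 5 roles of the members and, under the dashed line, the 8 wider lists, for WT and for the arrays labelled deleted against delta, with black bars at list medians. On the right the PERK-ATF4 list has 13 higher and 1 lower of 18 and a median of 0.86 (11, 1 and 0.54 without Trib3 and Vldlr), and the other degradation list 0 higher and 7 lower of 16.

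The degradation list beyond the members gave 0 higher and 7 lower of 16 on the arrays labelled deleted against delta (43.8% called, against 36.5% of all genes and 19.1% lower). It gave 0 in WT or K165A against delta, where 13.5% and 13.1% of all genes passed (4 and 3 at an unadjusted p under 0.05 by limma). Ube2j1, a ubiquitin-conjugating enzyme of the ER membrane, read 779.6 and 693 there and 1248 and 1238 on delta (-0.75, limma adjusted p = 5.33e-05). Selenos, a selenoprotein of the retrotranslocation complex, was lower by 0.49 (a difference of -0.49, limma adjusted p = 0.00229).

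Translocation and signal peptidase genes beyond the members gave 4 higher and 1 lower of 18 against delta on the arrays labelled deleted (27.8% called, below the 36.5% of all genes). The lower one was Spcs3, a subunit gene of the signal peptidase complex, at 2317 and 2469 against 7317 and 7544 in delta, 3.09-fold lower (log2 difference -1.63, limma adjusted p = 6.35e-07). The TRAP subunit gene Ssr2 was higher by 0.69 (limma adjusted p = 1.99e-04), in the same direction as the member Ssr1. Of 20 other folding enzymes, 3 were higher and 4 lower, a share below the 36.5% of all genes, Pdia5 falling by 0.81 (a difference of -0.81, limma adjusted p = 7.37e-05).

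Glycan transfer and trimming genes gave 2 higher and 0 lower of 13 there (15.4% called, below the 36.5% of all genes). In WT and K165A the cargo receptor subunit gene Mcfd2 was lower than delta, at 1197 and 1246 on WT and 1176 and 1161 on K165A against 1659 and 1713 (-0.46 and -0.52, limma adjusted p = 0.0117 and 0.00596). The WT call was lost without WT replicate 1 (0.0783), WT replicate 2 (0.0503) or delta replicate 2 (0.0664).

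Other membrane-bound transcription factor and sensor genes gave 1 higher and 1 lower of 10 in both WT and K165A against delta. Of all genes 13.5% and 13.1% passed in these comparisons. Creb3l2, an ER-bound factor of secretory cells, read 1296 and 1394 on delta, 1872 and 2026 on WT and 1898 and 2039 on K165A (0.53 and 0.54, limma adjusted p = 0.00463 and 0.00405). Both held whichever array was left out and were lost as the mean of its probe sets (0.0685 and 0.0622). Creb3 was lower by 0.28 in WT (a difference of -0.28, limma adjusted p = 0.0312) and by 0.43 in K165A (-0.43, limma adjusted p = 0.00416). Its WT call was lost without either WT, either delta or either deleted array (0.0502 to 0.163) and in a fit of those 4 arrays alone (0.0929).

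Collagen-folding enzymes of the ER gave 1 lower of 12, Plod2, in WT and in K165A against delta. Of all genes 7.69% and 7.74% were lower in these comparisons. Plod2, a lysyl hydroxylase of collagen, read 784 and 941 on delta, 513 and 585 on WT, 489.7 and 568 on K165A, 771 and 878 on H1093K, and 1523 and 1704 on the arrays labelled deleted. Its differences from delta were -0.63 in WT (limma adjusted p = 0.00911, lost without WT replicate 1 at 0.0785 or delta replicate 2 at 0.0678), -0.69 in K165A (limma adjusted p = 0.00599) and 0.90 on the arrays labelled deleted (limma adjusted p = 3.80e-04). The prolyl hydroxylase genes P4ha1 and P4ha2 went opposite ways there, at 0.42 and -0.90 (limma adjusted p = 0.00374 and 2.62e-04). Of the 4 UFM1 pathway genes tested, Cdk5rap3 and Ddrgk1 were higher there (0.59 and 0.42, limma adjusted p = 0.00734 and 0.00943) and the protease gene Ufsp2 lower (-0.66, 0.00746). Of all genes 17.4% were higher and 19.1% lower there. The Ddrgk1 call was lost without deleted replicate 1 (0.0627), and that of Ufsp2 without delta replicate 2 (0.0578) or deleted replicate 1 (0.0620).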

How the data were processed

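Total RNA from 10 samples was measured on an Affymetrix mouse array. The authors deposited linear-scale signal intensities from GCOS 1.4, per the submitters' processing notes; its background and scaling options are not given in the sources used here. The trimmed mean (2% off each end) was 500.1 on every array and the median signal 181 to 199, so no scaling was added. Of 22626 probe sets other than controls, 20380 name 1 gene, 691 several and 1555 none; symbols were updated through a RefSeq GRCm38.p6 table, which changed 9 of the listed ones.

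Values were log2(signal + 16), which understates differences of dim genes. Probe sets under the 40th percentile of mean signal (103.5) were left out. limma 3.58.1 (R 4.3.3) fitted 1 mean per group over all 10 arrays (5 residual degrees of freedom), with trended moderation and Benjamini-Hochberg adjustment over 13576 probe sets, and was tested on simulated data. A permutation of 2 arrays against 2 cannot go below p = 0.333, so none was used. The number of arrays, 2 a group, limits the precision.

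Groups and replicate numbers come from the titles. Same-numbered arrays deviated together in all 10 pairs of groups (correlations 0.229 to 0.509), but the labels do not say that they were paired. The main fit has no block. A fit with the number as a block is given where it changes a call or a count. All member genes may be named: array values are given for the 14 members called anywhere and for Hspa5, Ern1 and Herpud1. Of the wider lists up to 3 genes each, by smallest adjusted p, and, for PERK-ATF4, the preset Atf4 and Ddit3 too, were named. The members and lists were chosen with earlier results of these data known. Alternatives were other pseudocounts, filters, scalings, sets of arrays, the block and the mean over probe sets.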

Additional observations from a re-analysis of the deposited data

How the results depend on the processing

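No result called in the main fit or in the alternative turned direction under any alternative tried. The directions of results called in neither fit were not compared. Of the 37 member calls over 8 comparisons, 17 were kept whichever array was left out and 22 in every other setting. With the replicate number as a block (a possible pairing of the arrays), the members called were 7 in WT against delta and 5 in K165A against delta. They were 0 in H1093K against delta, 0 in K165A against WT, 8 in H1093K against WT and 9 in K165A against H1093K. They were 15 in deleted against delta and 10 in deleted against WT. With the block 0 calls were lost and 17 gained. With only the arrays compared in the fit, 3 members were called in WT against delta, 2 in K165A against delta, 3 in H1093K against WT (Dnajb11, Ppp1r15a and, newly, Edem1) and 1 in K165A against H1093K; fewer arrays then give the spread. H1093K against WT also gave 3 with no filter on dim probe sets, with median centring and without the deleted arrays, and K165A against H1093K gave 7 with a gene as the mean of its probe sets; the cause was not tested. Leaving out 1 array at a time gave 2 to 5 in WT against delta, 2 to 4 in K165A against delta, 0 in H1093K against delta, 0 in K165A against WT, 2 to 4 in H1093K against WT, 0 to 2 in K165A against H1093K, 8 to 12 in deleted against delta and 4 to 9 in deleted against WT. The lowest counts came without WT replicate 1 in WT against delta and in deleted against WT, and without H1093K replicate 1 or K165A replicate 1 in K165A against H1093K. Delta replicate 2 or either K165A array brought K165A against delta to 2, and either WT or either H1093K array brought H1093K against WT to 2. The lone array left in a group was assumed to vary like the other groups. The share of all genes called under each of these settings is not set beside the counts. A changed count is therefore not read as particular to the members. Of 68 wider calls named, 51 were kept whichever array was left out.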
